A study of Mus musculus with 6 samples.

Results

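The S100 alarmins and neutrophil granule genes were followed as 10 genes: S100a8, S100a9, S100a4, S100a6, S100a10, S100a11, Lcn2, Camp, Ngp and Ltf. They were chosen by symbol, and all 10 were among the 19349 genes of every count table. The data were 6 single-cell RNA-seq libraries of non-parenchymal liver cells, 3 of a vehicle group and 3 of a ginkgetin group. All animals were male C57BL/6J mice, 8 weeks old on arrival, fed a high-fat diet for 24 weeks to produce nonalcoholic steatohepatitis (NASH). Ginkgetin, a plant biflavone, was given by gavage at 10 mg/kg per day in the last 8 weeks, and the control mice received the vehicle over the same time. Both groups carried the diet, and libraries from chow-fed mice were not analysed here.

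S100 proteins are small calcium-binding proteins. S100a8 and S100a9 pair as calprotectin, which fills the cytoplasm of neutrophils and is released as a danger signal (an alarmin) through the receptors Tlr4 and Ager. S100a4, S100a6, S100a10 and S100a11 act inside many cell types, where they bind annexins, myosin and the cytoskeleton. Camp (cathelicidin), Ngp (neutrophilic granule protein) and Ltf (lactoferrin) are cargo of the secondary granules, which a granulocyte precursor makes in the bone marrow before it becomes a mature neutrophil. Lcn2 (lipocalin 2) is carried by the same granules and binds iron-loaded bacterial siderophores, and it is also secreted by hepatocytes and bile duct cells in an injured liver.

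The tables held 33168 barcodes and between 13128697 and 61796882 unique molecular identifiers (UMIs, each counting 1 captured mRNA molecule) per library. After filtering, 27544 cells remained, 3336 to 6918 per library, and they were clustered without the 10 genes and named from marker genes. The 12 named classes carry the ending "-like" because the names rest on markers. A level is given in CPM, the UMIs of a gene per 1000000 UMIs of all cells of that class in that library. Replicate 3 of both groups stood apart: these libraries shared at most 10 barcodes with any other library, and they used another version of gene symbols, with 2253 genes counted only there. Monocyte-like, macrophage-like and endothelial-like cells of the 2 groups came mostly from different clusters. The largest endothelial-like cluster of the vehicle group held 78.0% of its endothelial-like cells but 0.449% of those of the ginkgetin group, and the largest macrophage-like clusters held 29.7% and 1.12%. Cholangiocyte-like cells formed 1 cluster in both groups.

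The genes sit on 3 mouse chromosomes (GRCm38, GENCODE gene spans). On chromosome 3, S100a4 (chr3:90603771-90606045), S100a6 (chr3:90612882-90624181), S100a8 (chr3:90668978-90670035) and S100a9 (chr3:90692632-90695721) lie within 92.0 kb, with S100a9 on the minus strand and the others on the plus strand. S100a11 (chr3:93520488-93526287) and S100a10 (chr3:93555080-93564643) lie farther along the same chromosome, 28.8 kb apart. The granule genes Camp (chr9:109847379-109849617, minus strand), Ngp (chr9:110419747-110423012) and Ltf (chr9:111019271-111042767) lie on chromosome 9, and Lcn2 (chr2:32384633-32388252, minus strand) lies on chromosome 2. The bases just before the first annotated exon of S100a8, S100a9, Camp, Ngp and Ltf are shown, from RefSeq (GRCm38.p6), 5′ to 3′ on the gene's strand. Capitals mark a C/EBP-type motif (TTGCNNAA) or a PU.1-type motif (GAGGAAG), each on either strand. Factors of both kinds act in granulocyte development.
S100a8 (chr3:90668878-90668977): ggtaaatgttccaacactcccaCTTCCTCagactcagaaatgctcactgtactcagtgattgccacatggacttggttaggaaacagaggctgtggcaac
S100a9 (chr3:90695722-90695821): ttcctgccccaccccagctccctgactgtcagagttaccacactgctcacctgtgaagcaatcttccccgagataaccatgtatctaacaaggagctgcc
Camp (chr9:109849618-109849706): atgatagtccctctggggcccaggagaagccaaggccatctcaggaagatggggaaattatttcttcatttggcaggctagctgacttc
Ngp (chr9:110419647-110419746): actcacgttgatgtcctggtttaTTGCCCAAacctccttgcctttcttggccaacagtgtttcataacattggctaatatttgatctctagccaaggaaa
Ltf (chr9:111019171-111019270): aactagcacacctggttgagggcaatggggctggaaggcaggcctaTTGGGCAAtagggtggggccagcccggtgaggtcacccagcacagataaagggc
Over the 250 bases before the RefSeq start, a C/EBP-type motif stood in the promoters of S100a9, Lcn2, Ngp (2 copies) and Ltf, and in 9.56% of 32851 promoters. The PU.1-type motif stood in S100a8 and Lcn2, and in 10.6% of all promoters. TATAAA on the gene's strand stood in S100a8 and S100a4, and in 7.59%. An entry was found for 9 of the 10 genes. These matches describe letters and not binding.

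S100a8 and S100a9 stood highest in neutrophil-like cells, and there were few such cells. The neutrophil-like class was 1 sub-cluster of 40 cells, with 2, 0 and 27 cells in vehicle replicates 1, 2 and 3 and 0, 6 and 5 cells in ginkgetin replicates 1, 2 and 3. Its name rested on markers other than the members: Csf3r, the receptor for granulocyte colony-stimulating factor, was detected in 40 of 40 cells, Hdc in 39, Mmp9 in 33 and Cxcr2 in 29. Of the other markers, Trem1 was detected in 28 cells, Stfa2l1 in 16, Fpr1 in 12 and Ly6g in 4. S100a8 was detected in 37 of these cells, with a median of 41 UMIs and a highest value of 645, and in 8.30% of all other cells. S100a9 was detected in 38, with a median of 36 UMIs. The class held 29.6% of the S100a8 and 30.6% of the S100a9 UMIs of kept cells, less than the cells of unnamed clusters, which held 32.4% and 39.2%. Summed by library, S100a8 stood at 7154 CPM in vehicle 3, 6163 in ginkgetin 2 and 7364 in ginkgetin 3, and at 1436 CPM in the 2 cells of vehicle 1. Vehicle 3, ginkgetin 2 and ginkgetin 3 were thus close to one another in S100a8, but vehicle 3 was the only vehicle library with at least 5 such cells.

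The neutrophil-like share of kept cells overlapped between the groups. It was 0.653% of vehicle 3 (exact 95% interval 0.431 to 0.948), 0.0332% of vehicle 1, 0.0867% of ginkgetin 2 and 0.137% of ginkgetin 3. In vehicle 2 and ginkgetin 1, which had none, 3 counts would be 0.0899% and 0.0859%, and the exact 95% intervals reach 0.111% and 0.106%. The mean was 0.229% ± 0.368 in the vehicle group and 0.0747% ± 0.0694 in the ginkgetin group (SD, n = 3 each; p = 0.9, two-sided exact permutation test). Without vehicle 3 the ginkgetin mean was 0.0580 percentage points above the vehicle mean. The class also depended on the genes used: with the 10 genes included in clustering, the share was 0.216%, 0.12% and 0.701% in the vehicle and 0%, 0.116% and 0.165% in the ginkgetin libraries (exact permutation p = 0.2), and vehicle 1 and 2 then each stood above the ginkgetin mean of 0.0934%. Counted in place of the class, cells with a UMI of 3 or more neutrophil markers made up 0.848%, 0.629% and 1.74% of the vehicle and 0%, 0.419% and 0.439% of the ginkgetin libraries, with no overlap (exact permutation p = 0.1, the smallest possible). Median depths were 4365, 3911.5 and 8412 UMIs per cell in the vehicle and 2483, 2622.5 and 6262 in the ginkgetin libraries. With each cell thinned to 1000 UMIs the expected shares overlapped, at 0.0623%, 0.0164% and 0.3% against 0%, 0.0652% and 0.168% (exact permutation p = 0.7). Only vehicle 3 reached 10 neutrophil-like cells, the minimum set here for a library, so the members were not tested between groups within this class.

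**Figure D1:**
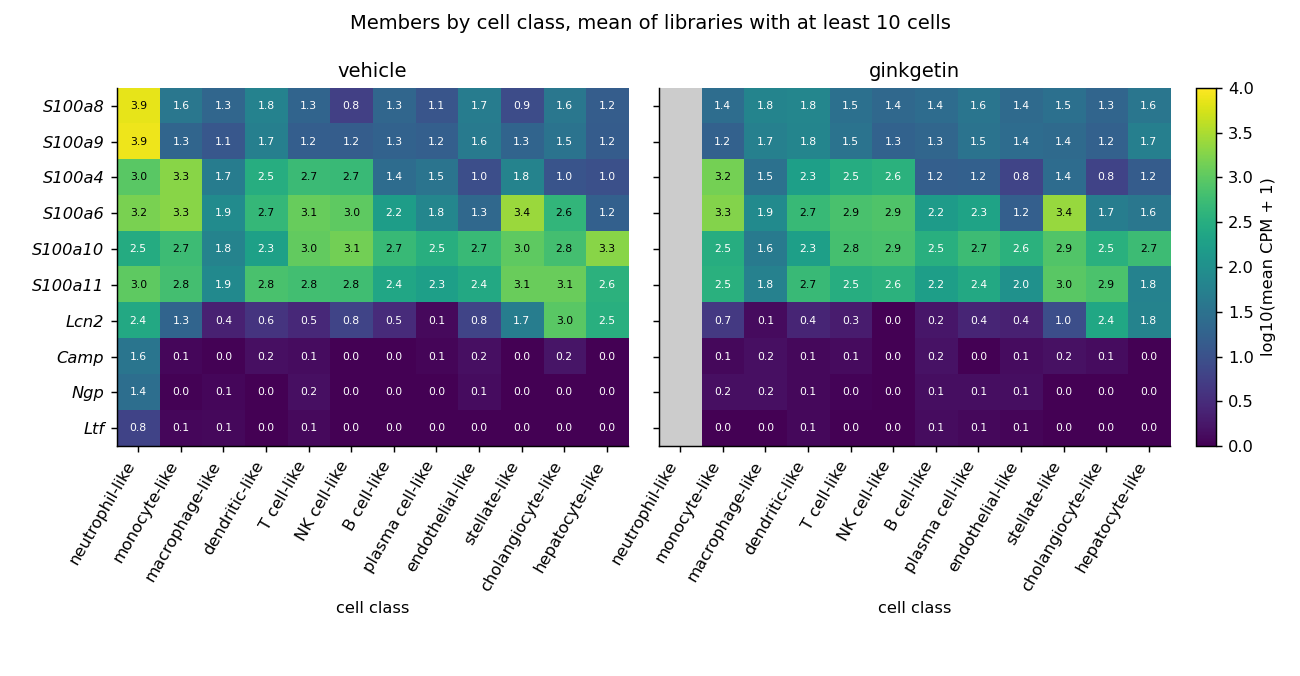
Mean level of each gene (rows) in each cell class (columns) as log10(mean CPM + 1), over the libraries of a group with at least 10 cells of that class; grey, no such library. In the vehicle group S100a8 stands at 7154 and S100a9 at 7847 CPM in neutrophil-like cells and both at or under 57.9 CPM in the other named classes, while S100a6, S100a10 and S100a11 are spread over most classes.

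Of the other members in neutrophil-like cells, S100a11 was detected in 40 of 40, S100a6 in 36, and S100a4 and S100a10 in 24 each. Lcn2 was detected in 15 cells, Ngp in 3, and Camp and Ltf in 2 each. Camp, Ngp and Ltf were thus rare in this class, at 5%, 7.5% and 5% of cells, against 0.153%, 0.138% and 0.109% of all other cells. Lcn2 was in 37.5% against 3.07%, and S100a10 in 60% against 64.3%. These shares are at the cells' own depth, with a median of 11432 UMIs in this class. Of 8 precursor markers, Mpo, Elane, Ctsg, Ms4a3 and Fcnb, which encode enzymes of the primary granules or other early granulocyte proteins, had no UMI in any of the 40 cells. Prtn3 was detected in 2, Cebpe in 3 and Mmp8 in 12.

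The granule genes came almost entirely from 1 barcode. A single barcode of vehicle 3, with 23715 UMIs and 3598 genes detected, held 1478 of 1533 Camp UMIs (96.4%), 840 of 887 Ngp UMIs (94.7%) and 116 of 148 Ltf UMIs (78.4%) in the kept cells of all 6 libraries. It also held 2870 S100a8 UMIs, 3695 S100a9 UMIs and 424 Lcn2 UMIs. By contrast it held no S100a4 or S100a10 UMI, 2 S100a6 UMIs and 22 S100a11 UMIs. The S100a9 UMIs alone were 15.6% of all its UMIs and the Camp UMIs 6.23%.

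This barcode lay in an unnamed cluster and not in the neutrophil-like class. It carried 23 UMIs of Fcnb, 5 of Cebpe, the regulator of secondary granule genes, and 4 of Ms4a3, and none of Mpo, Elane, Prtn3 or Ctsg. It also carried 21 UMIs of Mki67, 19 of Top2a and 10 of Cdk1, genes of dividing cells, and 4 of Ly6g, a neutrophil surface marker. The remaining 55 Camp UMIs lay in 43 cells, with at most 12 in 1 cell. In ginkgetin 1 no kept cell held a UMI of Camp, Ngp or Ltf. The 21 Camp UMIs of ginkgetin 2 were in 21 different cells. With all 6 libraries, none of the 3 granule genes passed the filter on low counts in the classes tested or in all kept cells. The thinned shares of all kept cells with a UMI overlapped between the groups (exact permutation p = 1 for Camp, 1 for Ngp and 0.7 for Ltf). Without the filter, edgeR called none of them in all kept cells (adjusted p = 0.264, 0.356 and 0.336; 0 of 3 at an unadjusted p under 0.05).

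**Figure D2:**
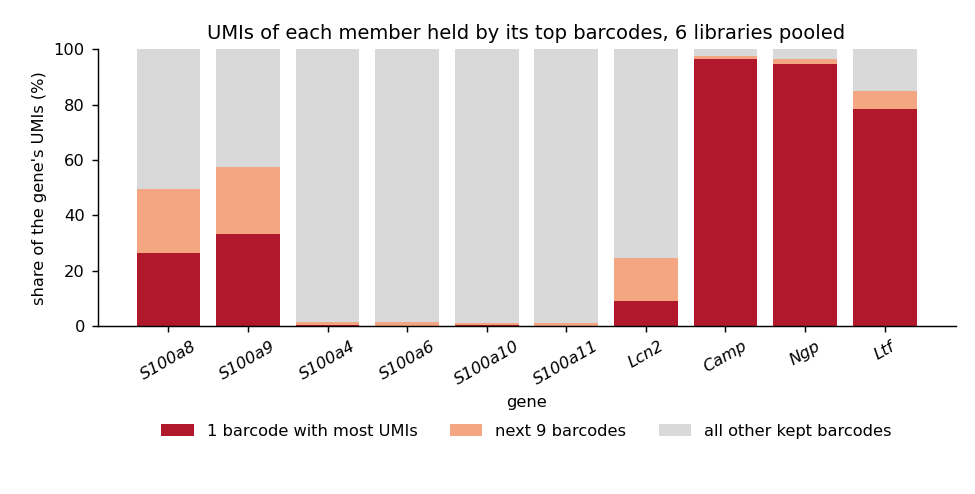
Share of each gene's UMIs (vertical axis, percent) held by the barcode with the most UMIs of that gene, by the next 9 barcodes and by all others, over the 27544 kept cells of 6 libraries. One barcode holds 96.4% of Camp and 94.7% of Ngp UMIs, 10 barcodes hold 49.6% of S100a8 and 57.5% of S100a9 UMIs, and 10 barcodes hold at most 1.43% of the S100a4, S100a6, S100a10 or S100a11 UMIs.

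In the other named classes S100a8 and S100a9 were low, and their sums often rested on single barcodes. Cells of unnamed clusters reached 680 and 864 CPM in vehicle 3, where the barcode rich in Camp held 94.3% and 95.6% of the UMIs, and stood at 5.15 to 86.3 and 9.75 to 103 CPM in the other libraries. In dendritic-like cells, 1 barcode held 97.9% of the 281 S100a8 UMIs of vehicle 3 and 1 held 98.5% of the 136 of ginkgetin 3. In endothelial-like cells of vehicle 1, 1 barcode held 77.8% of 325 UMIs. In T cell-like cells of ginkgetin 3, 1 held 92.3% of 117 UMIs, and in cholangiocyte-like cells of vehicle 1, 1 held 76.9% of 108. Ginkgetin 2 differed from this: S100a8 was found there at 45 to 130 CPM in all 11 named classes other than the neutrophil-like one. The highest count in any of its 2994 endothelial-like cells was 2 UMIs, although in its dendritic-like cells 1 barcode held 56.4% of 202 UMIs.

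T cells, which lack calprotectin, were used to gauge free RNA. With each cell thinned to 1000 UMIs, the expected share of T cell-like cells with an S100a8 UMI was 1.40%, 0.803% and 1.07% in vehicle 1, 2 and 3 and 1.12%, 4.63% and 0.425% in ginkgetin 1, 2 and 3. Ginkgetin 2 was the highest library, and the others of both groups overlapped. The mean difference was 0.966 percentage points (p = 0.8, two-sided exact permutation test; the smallest p that 3 against 3 allows is 0.1). At their own depth, with median UMIs per cell from 2627 to 6328, the difference was 2.83 points (p = 0.9, exact permutation test). Without ginkgetin 2 the difference was -0.320 points in the thinned cells.

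In monocyte-like cells, whose type can carry calprotectin, the thinned S100a8 share was above the T cell-like share in each library. It was 2.24%, 2.16% and 2.16% in the vehicle libraries, against 1.2%, 1% and 1.33% in B cell-like cells of the same libraries. In the ginkgetin libraries it was 1.32%, 5.97% and 0.582%, against 1.32%, 5.27% and 0.777% in B cell-like cells. The monocyte-like share was thus above the B cell-like share in each vehicle library. In the ginkgetin libraries it was the same to the digits given, higher and lower, in that order. The gap between these classes was not tested between the groups. Median depths were 5106 to 9318.5 UMIs in monocyte-like and 1875 to 3705 in B cell-like cells. Monocyte-like levels before thinning were 37.5, 36.2 and 38.1 CPM in the vehicle and 14.7, 59.6 and 4.65 CPM in the ginkgetin libraries, which overlapped (edgeR adjusted p = 0.847).

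The balance of S100a8 to S100a9 was compared between classes of one library. In ginkgetin 2, S100a8 made up 56.2% of the UMIs of both genes in neutrophil-like cells (exact 95% interval 51.1 to 61.2), 55.6% in T cell-like and 53.4% in endothelial-like cells. In vehicle 3 it made up 47.7% in neutrophil-like cells (46.4 to 49.0), 81.4% in monocyte-like cells (76.0 to 86.0) and 35.8% in endothelial-like cells (29.0 to 43.2). In ginkgetin 2 the interval of each of 6 other classes overlapped that of the neutrophil-like cells. In vehicle 3 that of B cell-like cells did (22.7 to 59.4), and those of T cell-like, macrophage-like, dendritic-like, monocyte-like and endothelial-like cells did not. The T cell-like (51.8 to 68.1), macrophage-like (52.4 to 65.1) and dendritic-like intervals (53.2 to 62.1) of vehicle 3 overlapped one another. In ginkgetin 3 the neutrophil-like value of 52.6% (48.6 to 56.5) lay above the T cell-like 36.6% (31.3 to 42.1), where 1 barcode held 92.3% of the S100a8 UMIs, and the intervals did not overlap, while those of the other 5 classes overlapped the neutrophil-like one. Over all cells outside the class it was 43.9% (41.2 to 46.7) in ginkgetin 3, below the neutrophil-like interval, and 46.6% (45.5 to 47.6) in vehicle 3, overlapping it. These intervals cover counting error only.

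In macrophage-like cells S100a9 stood at 17.6, 9.75 and 5.67 CPM in the vehicle libraries and 29.7, 112 and 23.6 CPM in the ginkgetin libraries. All ginkgetin libraries were above all vehicle libraries, as were 31% of the genes compared in this class. The log2 fold change was 1.87 ± 0.73 (SE; edgeR adjusted p = 0.13), and with the replicate number as a block it was 1.82 ± 0.39 (adjusted p = 0.00594). S100a8 moved likewise in the blocked fit, by 1.21 ± 0.36 (adjusted p = 0.03), against 1.17 ± 0.77 without the block (adjusted p = 0.343). Per cell the S100a9 UMIs did not separate the groups, at 0.176, 0.0809 and 0.0951 in the vehicle and 0.0971, 0.328 and 0.0897 in the ginkgetin libraries. The median depth of these cells was 7545.5 to 16682 UMIs in the vehicle and 2111 to 2363 UMIs in the ginkgetin group, so the share of cells with a UMI was compared at equal depth. With each cell thinned to 1000 UMIs it was 1.22%, 1.01% and 0.644% for S100a9 in the vehicle and 3.14%, 7.28% and 2.25% in the ginkgetin libraries, with no overlap (exact permutation p = 0.1, the smallest possible). The same share in T cell-like cells was 0.921%, 1.31% and 1.16% against 0.826%, 3.93% and 0.722%. Thinning keeps a gene's fraction of a cell's UMIs, so it cannot tell more S100a9 from fewer other UMIs per cell. Without ginkgetin 2 the S100a8 log2 fold change was -0.064.

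**Figure D3:**
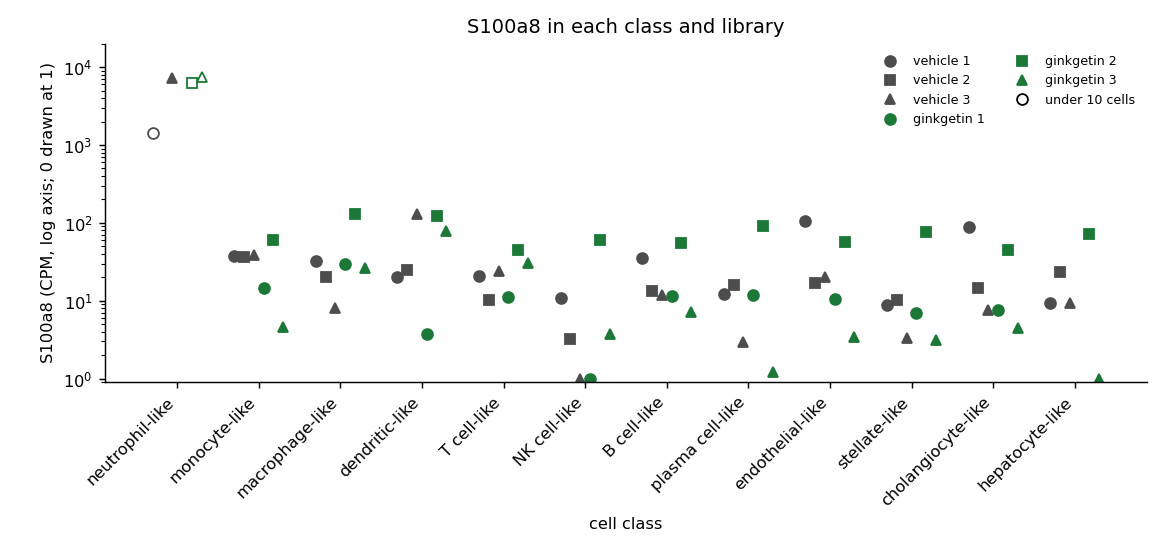
S100a8 level in each cell class (horizontal axis) and library, in CPM on a log axis with 0 drawn at 1; open symbols mark sums of under 10 cells. Neutrophil-like cells lie between 1436 and 7364 CPM, and the other named classes at or under 130 CPM, with ginkgetin 2 the highest library in 8 of 11 of them.

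Lcn2 stood highest in cholangiocyte-like cells, the bile duct cells of the liver. The 558 cholangiocyte-like cells held 63.5% of its 4731 UMIs in kept cells, hepatocyte-like cells 12.6% and neutrophil-like cells 2.33%. Barcodes removed by the filter held another 5423 Lcn2 UMIs, 53.4% of the gene's total, and 4209 of them were in vehicle 3. These barcodes were given no class, so the shares do not cover them. In cholangiocyte-like cells it stood at 980, 575 and 1295 CPM in vehicle 1, 2 and 3 and at 233, 218 and 260 CPM in ginkgetin 1, 2 and 3. The ginkgetin libraries lay close together, and each was below every vehicle library. The log2 fold change was -1.99 ± 0.32 (SE), which missed the threshold (edgeR adjusted p = 0.0645). With the replicate block it was -1.91 ± 0.27 and passed (adjusted p = 1.6e-04). Within replicates 1 and 2 it was -1.73 (adjusted p = 0.00770), and within replicate 3, with 1 library a group, the log2 ratio was -2.31.

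The share of cholangiocyte-like cells with an Lcn2 UMI after thinning to 1000 UMIs was 41.6%, 31.8% and 48.3% in the vehicle and 19.7%, 14.7% and 20.2% in the ginkgetin libraries (exact permutation p = 0.1, the smallest possible). The share in T cell-like cells of the same libraries was at most 0.274%. Median depths per cell overlapped between the groups, at 6715 to 11969 and 5520 to 12706.5 UMIs. The class itself made up 2.23% ± 0.912 of vehicle and 1.89% ± 0.325 of ginkgetin libraries (SD, n = 3 each).

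The other S100 genes tested in this class, apart from S100a8, stood lower in cholangiocyte-like cells of every ginkgetin library. S100a6 was at 270, 176 and 856 CPM in the vehicle and at 30.5, 46.1 and 67.6 CPM in the ginkgetin libraries, with vehicle 3 far above the rest. Its log2 fold change was -3.15 ± 0.59 (edgeR adjusted p = 0.0830), and -2.91 ± 0.31 with the replicate block (adjusted p = 6.12e-06). S100a10, the partner of annexin A2, was at 683, 518 and 743 CPM against 427, 326 and 294 CPM. S100a11 was at 1332, 1069 and 1213 CPM against 829, 707 and 668 CPM. Neither passed with or without the block (adjusted p from 0.0593 to 0.303). So 0 of 5 members tested were called in this class by edgeR, as were 0.176% of 7947 genes, and 2 of 5 were called with the block, as were 3.02% of the genes. At an unadjusted p under 0.05, 4 of 5 members passed, as did 12.9% of the genes, and DESeq2 called Lcn2 and S100a6, beside 1.23% of the genes. For the order of the libraries, 4 members were lower in every ginkgetin library, as were 11.3% of the genes compared.

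S100a4 was nearly absent from the same cells, at 2.94 to 16.8 CPM, and did not pass the filter. S100a8 was at 7.63 to 89.6 CPM in the vehicle and 4.41 to 45 CPM in the ginkgetin libraries, and its log2 fold change of -0.88 became 0.86 without vehicle 1.

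**Figure D4:**
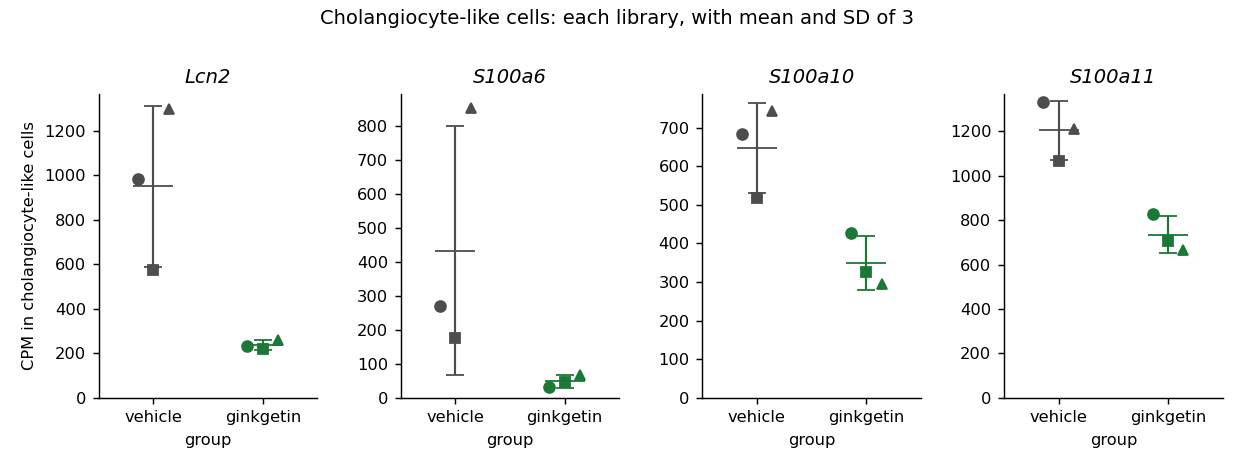
Level of Lcn2, S100a6, S100a10 and S100a11 in cholangiocyte-like cells (CPM, from 0), with a circle, square and triangle for replicates 1, 2 and 3, and the mean with SD of 3 libraries. For each gene all ginkgetin libraries lie below all vehicle libraries; the Lcn2 values are 575 to 1295 CPM against 218 to 260 CPM.

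Outside cholangiocyte-like cells the vehicle levels were lower. The neutrophil-like cells of vehicle 3 stood at 260 CPM. In hepatocyte-like cells it stood at 483, 186 and 340 CPM in the vehicle libraries. In ginkgetin 2 and 3 it stood at 121 CPM from 12 cells and at 0 from 177 cells, where 3 counts would be 7.91 CPM. Ginkgetin 1 held no hepatocyte-like cell, and the log2 fold change from the remaining libraries did not pass (edgeR adjusted p = 0.373; 0.0344 with the replicate block). In stellate-like cells it was at 61.8, 27.5 and 55.6 CPM against 14, 8.85 and 1.55 CPM. In monocyte-like cells it was at 17.5, 5.48 and 32.1 CPM against 1.63, 5.67 and 3.72 CPM, with ginkgetin 2 inside the vehicle range (log2 fold change -2.22 ± 0.68, edgeR adjusted p = 0.241). T cell-like, macrophage-like and endothelial-like sums stayed at or under 8.40 CPM.

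S100a11, which binds annexin A1 and A2 family proteins at membranes, and S100a10 were lower under ginkgetin in several classes at once. In monocyte-like cells S100a11 was at 741, 584 and 595 CPM in the vehicle and 364, 349 and 340 CPM in the ginkgetin libraries. In T cell-like cells it was at 681, 600 and 540 against 414, 281 and 233 CPM. In endothelial-like cells it was at 319, 282 and 187 against 102, 117 and 94.5 CPM. The groups did not overlap in any of these 3 classes. In macrophage-like cells, at 74.1, 102 and 58.2 against 68.3, 76.1 and 21.7 CPM, they did.

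None of these differences in S100a11 passed in the fit on group alone. The log2 fold changes were -0.92 ± 0.28 in monocyte-like, -0.93 ± 0.38 in T cell-like and -1.53 ± 0.34 in endothelial-like cells, with edgeR adjusted p values of 0.232, 0.457 and 0.131. With the replicate block S100a11 passed in monocyte-like (adjusted p = 0.0378), macrophage-like (0.00812) and endothelial-like cells (-1.46 ± 0.15, adjusted p = 0.00195), and not in T cell-like cells (0.0982). In hepatocyte-like cells S100a11 was at 483, 374 and 247 CPM in the vehicle libraries and at 97.1 and 21.1 CPM in ginkgetin 2 and 3, where the sums held 4 and 8 UMIs (log2 fold change -3.29 ± 0.76, edgeR adjusted p = 0.278; -3.02 ± 0.59, adjusted p = 0.00653 with the block; DESeq2 adjusted p = 0.00724). The endothelial-like cells compared came from different clusters in the 2 groups, and the part of this in the difference was not tested.

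S100a10 was at 660, 490 and 481 CPM against 364, 234 and 326 CPM in monocyte-like cells, with no overlap. In T cell-like cells it was at 1198, 950 and 1106 against 788, 565 and 619 CPM, again with no overlap. The endothelial-like libraries overlapped, at 662, 581 and 278 against 399, 385 and 285 CPM. The edgeR adjusted p was 0.274, 0.467 and 0.587 in these classes. With the block, S100a10 passed in monocyte-like (-0.90 ± 0.21, adjusted p = 0.0422) and macrophage-like cells (-1.13 ± 0.25, adjusted p = 0.00785). In hepatocyte-like cells it was at 2210, 2219 and 1440 CPM in the vehicle libraries and at 583 and 538 CPM in ginkgetin 2 and 3 (-1.95 ± 0.38, adjusted p = 0.258; 0.0926 with the block; DESeq2 adjusted p = 2.46e-04). Of the 4 members tested in that class edgeR called 0 (0% of genes), with 2 at an unadjusted p under 0.05, as were 556 of 4007 genes. With the block it called Lcn2 and S100a11 (1.85% of genes), and DESeq2 called S100a10 and S100a11 (2.04%). For the order of the libraries, S100a10 and S100a11 were the only members lower in every ginkgetin library in monocyte-like and T cell-like cells, where 9.51% and 9% of genes were so. S100a11 was the only one in endothelial-like cells, where 5.71% were.

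S100a4, known from motile and fibroblast-like cells, stood highest in monocyte-like cells in both groups. Over the 6 libraries pooled, monocyte-like cells held 50.4% of its UMIs, cells of unnamed clusters 26.3% and T cell-like cells 13.4%. Its level in monocyte-like cells was 1926, 1745 and 2220 CPM in the vehicle and 1359, 919 and 2147 CPM in the ginkgetin libraries, where ginkgetin 3 lay among the vehicle libraries (log2 fold change -0.53 ± 0.30, edgeR adjusted p = 0.463). In T cell-like cells it was at 494, 412 and 708 against 429, 238 and 231 CPM. In macrophage-like cells it was at 31.9, 58.5 and 51.3 against 17.8, 58.1 and 13.5 CPM (-1.11 ± 0.58, adjusted p = 0.237), and it passed there with the block (-1.41 ± 0.34, adjusted p = 0.0115).

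S100a6, linked to proliferating and fibroblastic cells, showed no shift in monocyte-like cells, at 2137, 1494 and 2169 CPM against 1716, 1451 and 2178 CPM (log2 fold change -0.20 ± 0.27, edgeR adjusted p = 0.779). In stellate-like cells, the fibroblast-related cells of the liver, it was at 3358, 2616 and 1636 CPM against 4667, 652 and 1990 CPM. Its cholangiocyte-like difference thus had no counterpart of similar size in these classes, but the contrast between classes was not tested. In endothelial-like and macrophage-like cells it stayed at or under 172 CPM.

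**Figure D5:**
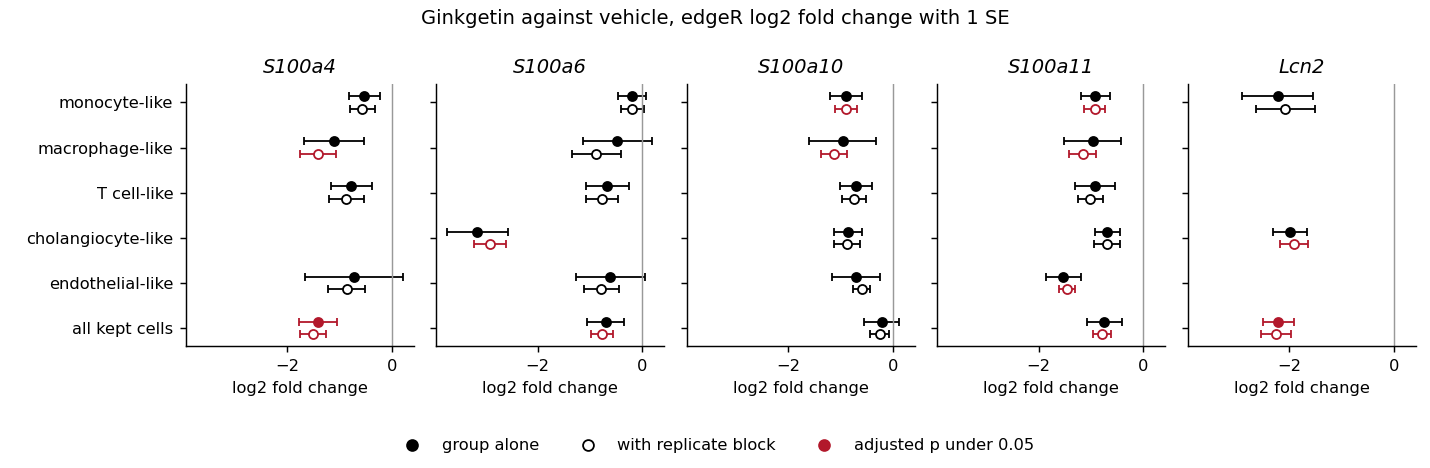
edgeR log2 fold change of ginkgetin against vehicle with 1 SE (horizontal axis) for 5 genes in 5 classes and in all kept cells; filled points, fit on group alone; open points, fit with the replicate block; red, adjusted p under 0.05. A gene not tested in a class has no point. All points lie below 0, only S100a4 and Lcn2 in all kept cells are red without the block, and the lowest is S100a6 in cholangiocyte-like cells at -3.15.

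The members' median log2 fold change was -0.53 in monocyte-like, -0.72 in macrophage-like, -0.68 in T cell-like, -0.88 in cholangiocyte-like and -0.79 in endothelial-like cells, where the median of all genes lay between -0.01 and 0.02. It was -2.62 in hepatocyte-like, -0.62 in NK cell-like, -0.31 in stellate-like and -0.25 in B cell-like cells. The hepatocyte-like, NK cell-like and stellate-like values rest on 4 members each. The hepatocyte-like value also rests on 5 libraries, with 12 cells in ginkgetin 2. The members' median lay above 0 in dendritic-like cells, at 0.065 with 3 of 6 members lower, and in plasma cell-like cells, at 0.96 with 1 of 6 lower. In plasma cell-like cells S100a6 and S100a10 were higher in every ginkgetin library, as were 10.2% of genes. There edgeR called 0 of 6 members (0% of genes), with 2 at an unadjusted p under 0.05, as were 809 of 6545 genes, and with the block it called S100a6 (1.51% of genes), as did DESeq2 (adjusted p = 9.83e-04; 1.12% of genes). S100a10 was lower in every ginkgetin library in B cell-like cells, as were 7.39% of genes, and in NK cell-like cells, as were 6.33%. Over the classes, edgeR on group alone called 0 of 7 members tested in monocyte-like cells (0.0237% of all genes), 0 of 6 in macrophage-like (13%), 0 of 6 in T cell-like (0%) and 0 of 6 in endothelial-like cells (0.502%). At an unadjusted p under 0.05 there were 3 members in monocyte-like (14.5% of genes), 1 in macrophage-like (31.9%), 1 in T cell-like (10.9%) and 1 in endothelial-like cells (13.8%), so the shares in macrophage-like, T cell-like and endothelial-like cells were below or near those of all genes. DESeq2 called S100a11 in monocyte-like (2.33% of genes) and endothelial-like cells (4.16%), S100a9 in macrophage-like cells (17.9%) and none in T cell-like cells (2.26%). With the replicate block the calls were 2 of 7 in monocyte-like (4.45% of genes), 5 of 6 in macrophage-like (27.2%), 0 of 6 in T cell-like (0.603%) and 1 of 6 in endothelial-like cells (12.6%).

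Summed over all kept cells, Lcn2 and S100a4 fell. Lcn2 was at 39.4, 33.6 and 48.3 CPM in the vehicle and 11.5, 11.7 and 8.36 CPM in the ginkgetin libraries, a log2 fold change of -2.21 ± 0.30 (edgeR adjusted p = 0.00655). S100a4 was at 498, 438 and 544 CPM against 295, 129 and 257 CPM, a log2 fold change of -1.41 ± 0.36 (adjusted p = 0.0403). Neither overlapped between groups. These were 2 of 7 members tested, and 19.5% of all 14240 genes were called. By order, 10.7% of genes were lower in every ginkgetin library. With the replicate block, S100a6 (-0.77 ± 0.21, adjusted p = 0.0335) and S100a11 (-0.79 ± 0.17, adjusted p = 0.0154) were called as well, 4 of 7 members beside 37.1% of genes.

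The cell makeup moved with the sums of all cells. Monocyte-like cells were 14.2% ± 0.197 of vehicle and 3.59% ± 0.363 of ginkgetin libraries, and macrophage-like cells 21.9% ± 3.15 and 7.17% ± 6.78 (SD, n = 3 each), and its part in the S100a4 difference was not tested. For Lcn2, the share of cholangiocyte-like cells overlapped between the groups, and the level within that class was lower in every ginkgetin library, as given above. Hepatocyte-like cells, which held 12.6% of its UMIs, were 3.12% ± 2.35 of vehicle and 1.68% ± 2.76 of ginkgetin libraries. The part of cell makeup in the Lcn2 difference was not tested either. S100a4 lost its call when any library other than ginkgetin 1 was left out (adjusted p from 0.0843 to 0.14). With cells filtered by UMIs in place of genes, neither was called (adjusted p = 0.277 for S100a4 and 0.290 for Lcn2). Lcn2 kept its call without any 1 library (adjusted p from 0.00793 to 0.0441) and without the barcode rich in Camp (-2.09, adjusted p = 0.00657).

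S100a8 and S100a9 in all kept cells rested on single libraries. S100a8 was at 36.1, 19.4 and 153 CPM in the vehicle and 9.94, 73.8 and 36.1 CPM in the ginkgetin libraries, and its log2 fold change was -1.08 ± 0.93 (edgeR adjusted p = 0.468). Without vehicle 3 it was 0.17. The barcode rich in Camp held 43.9% of the S100a8 UMIs of vehicle 3, and the neutrophil-like cells 40.9%. Camp stood at 35.2 CPM in vehicle 3 and at or under 0.919 CPM in every other library.

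Of the genes around this family, 41 of 42 on 6 lists were in the tables, covering other S100 genes, other granule genes, receptors, binding partners, regulators and neutrophil attractants. In macrophage-like cells 2 of 23 tested rose and 4 fell. Those that fell were Anxa1 (log2 fold change -4.29 ± 0.36, edgeR adjusted p = 0.0119) and Anxa2 (-3.14 ± 0.36, 0.0120), the annexins bound by S100a11 and S100a10, the sheddase Adam8 (-3.04 ± 0.35, 0.0120) and the scavenger receptor Cd36 (-1.59 ± 0.27, 0.0185). The formyl peptide receptor Fpr2 (1.41 ± 0.32, 0.0333) and the lipocalin receptor Slc22a17 (2.17 ± 0.42, 0.0237) rose. In these cells 6.13% of genes were called lower and 6.85% higher. No gene of the lists was called in monocyte-like, T cell-like, cholangiocyte-like or endothelial-like cells without the block (edgeR). At an unadjusted p under 0.05 there were 9 of 23, 5 of 19, 4 of 15 and 6 of 18 genes of the lists, beside 14.5%, 10.9%, 12.9% and 13.8% of all genes. DESeq2 called 5, 3, 0 and 2 of them, beside 2.33%, 2.26%, 1.23% and 4.16% of all genes.

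The calls in macrophage-like cells moved with the number of genes called when a library was left out. Of the 6 genes, 0 were called without vehicle 1, vehicle 2 or ginkgetin 2, where 0.0202%, 0% and 0% of all genes were called, so a count of 0 was the background there. There were 3 without ginkgetin 1 (3.24% of all genes), 4 without ginkgetin 3 (3.09%) and 5 without vehicle 3 (12.2%). With cells filtered by UMIs, Anxa1 and Anxa2 alone were called (2.85% of all genes). All 6 were called with the replicate block, and so were 6 more genes: S100a16 (log2 fold change 2.28 ± 0.38, edgeR adjusted p = 0.00189), the gelatinase Mmp9 and Stat3 were higher, and Chil3 (-3.99 ± 0.99, adjusted p = 0.0124), S100a1 and the attractant Cxcl1 (-2.35 ± 0.42, adjusted p = 0.00250) were lower. In these cells 14.9% of genes were called lower and 12.3% higher with the block.

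In the other classes the block called 6 genes of the lists in monocyte-like, 1 in T cell-like, 2 in cholangiocyte-like and 5 in endothelial-like cells, where it called 4.45%, 0.603%, 3.02% and 12.6% of all genes. In monocyte-like cells S100a16, Pglyrp1, Cd36 and Ahnak were higher, and Chil3 and Anxa1 were lower. The attractant Cxcl2 was lower in T cell-like and endothelial-like cells, and Cxcl1 in cholangiocyte-like and endothelial-like cells. Anxa2 was also lower in cholangiocyte-like cells, and Cd36, Cebpb and Stat3 in endothelial-like cells.

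In all kept cells 12 of 30 tested genes of the lists fell and 0 rose in the fit on group alone (edgeR), while 9.47% of genes were called lower and 10% higher. They held the regulators Cebpb (-2.07 ± 0.22, edgeR adjusted p = 0.00399) and Spi1 (-1.93 ± 0.32, 0.0120), which encode a C/EBP factor and PU.1. Neither was called without the block in the classes tested for the lists (edgeR). Monocyte-like cells averaged 14.2% of vehicle and 3.59% of ginkgetin libraries, and macrophage-like cells 21.9% and 7.17%. The part of this cell makeup in the 12 differences was not tested. The neutrophil attractants Cxcl2 (-4.27 ± 0.77, 0.0147) and Cxcl5 (adjusted p = 0.0101) were lower too. Cxcl2 was at 51.3, 200 and 461 CPM in the vehicle and 12.8, 14.3 and 18.2 CPM in the ginkgetin libraries. Cxcl5 was at 2.35, 0.773 and 3.37 CPM against 0, 0 and 0.0797 CPM. Of the granule list, Chil3 (-3.52 ± 0.48, 0.00677), Fcnb, Prtn3, Cd177 and Adam8 fell, and Lrp1, Anxa1 and Anxa2 complete the 12. Cebpd was listed at 0 in replicates 1 and 2 of both groups and at 114 and 103 CPM in the replicate 3 libraries. Csf3 had 2 UMIs and S100g 1 UMI in all kept cells.

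The calls in all kept cells also changed with the setting. With the replicate block 16 genes of the lists were lower and 3 higher, beside 19.1% and 18% of all genes. The 3 were S100a16 (log2 fold change 1.28 ± 0.19, edgeR adjusted p = 0.00448), Mmp9 (1.90 ± 0.15, adjusted p = 0.00103) and Ahnak (0.74 ± 0.15, adjusted p = 0.0128), and Mmp8, Cxcl1, Tlr4 and Fpr2 were added to the 12 that fell. DESeq2 called 16 lower and 2 higher, beside 15.5% and 13.4% of all genes. Of the 12 genes, 3 kept their call without ginkgetin 2 (Anxa1, Anxa2 and Cebpb), 5 without vehicle 2, and 7 to 10 without another library, and these fits called 4.34%, 4.37% and 5.58% to 14.4% of all genes. With cells filtered by UMIs, as the study's methods word the limits, 0 of the 12 and 0% of all genes were called by edgeR, and 1724 of 12131 genes passed at an unadjusted p under 0.05.

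By likeness of level over 66 sums of a class in a library, the genes nearest to S100a8 were Cxcr2 (Pearson r = 0.714), Retnlg (0.691), Il1f9 (0.637), Chil1 (0.626) and Asprv1 (0.613). Nearest to Lcn2 was Krt8 (0.836), a keratin of simple epithelia, followed by Gimd1, Echdc2, Wfdc2 and Tpd52l1 (0.803 to 0.809). Nearest to S100a6 were Crip1 (0.778), Mbp, Pdlim2, Sulf2 and Arl6ip5 (0.720 to 0.747). Camp had a UMI in 21 of the sums, and its nearest genes, Gm11210, Ceacam10, Mrgpra2b, Gm21859 and Gm27168 (0.825 to 0.828), are named by that order alone. Sums of 1 library share its depth and those of 1 class its cells, so these r values are descriptions.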

How the data were processed

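The deposited tables held raw UMI counts per gene and barcode, which the authors made from 10x Genomics libraries; GRCm38 and mm10 are listed as builds in the submitters' processing notes, and the aligner is not given in the sources used here. The labels also describe a bulk RNA kit, which cannot be matched to these tables. The genes and lists were chosen with earlier results of these data known. Cells with 250 to 5000 genes and under 5% mitochondrial UMIs were kept (27544). The study's methods word these limits in UMIs; read so, they left 16821 cells, used as an alternative. Cells were clustered (scanpy 1.11.5, Leiden, 2000 variable genes without the members, resolution 1), myeloid clusters a second time, and 41 of 49 clusters were named from at least 3 markers. Doublets were left in, and the 5% of cells with the highest Scrublet scores were removed as an alternative. UMI counts were summed per class and library with at least 10 cells and tested with edgeR 4.0.16 (quasi-likelihood, TMM, filterByExpr, group as the only term; Benjamini-Hochberg over all genes, threshold 0.05). DESeq2 1.42.0 was an alternative. Scripts were tested on simulated data. Shares were compared by exact permutation tests.

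Replicate numbers come from the titles, with nothing stated on separate cultures or litters. Same-numbered libraries deviated together in all kept cells and in each class with 6 libraries (r over 0.1 for each pair), so fits with the replicate number as a block are printed where they change a call. Hepatocyte-like cells, with 5 libraries, were not checked. For replicates 1 and 2 the gap between correlations across and within numbers varied with the class. In monocyte-like cells they were 0.442 and 0.526 across and 0.508 and 0.570 within. In all kept cells they were 0.535 and 0.509 across and 0.692 and 0.672 within. Stellate-like cells had -0.00318 and 0.211 across and 0.495 and 0.338 within. NK cell-like cells had 0.413 and 0.421 across and 0.385 and 0.417 within. Replicate 3 stood apart (0.831 in monocyte-like cells). Replicate 3 of both groups is also the set with other barcodes and symbols, so number and set cannot be told apart, and the pairing of replicates 1 and 2 rests on their numbers. P-values measure the spread between these libraries. Intervals and floors cover counting error only. Genes named beyond the 10 members were those of the fixed lists that were called or at 0, and the 5 nearest genes by Pearson r of log2(CPM + 1) for 4 members. Strand and overlapping genes were not examined. No value was imputed. Tests in a class used all 6 libraries, except that hepatocyte-like cells were absent from ginkgetin 1; alternatives left out single libraries, replicate 3, or libraries with under 10 cells of a class.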

Additional observations from a re-analysis of the deposited data

Results flagged for a closer look

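Plasma cell-like cells moved against other classes in 2 genes, with every ginkgetin library above every vehicle library there and below in the other class. For S100a6 the log2 ratio of the group means was 1.64 in plasma cell-like cells and -3.17 in cholangiocyte-like cells. For S100a10 it was 0.775 in plasma cell-like cells, against -0.892 in cholangiocyte-like and -0.819 in monocyte-like cells and, among lymphocytes, -0.552 in the B, -0.962 in the NK and -0.722 in the T cell class. The difference between classes was not tested. S100a6 in plasma cell-like cells was at 90.9, 72.4 and 37.1 CPM in the vehicle and 273, 221 and 132 CPM in the ginkgetin libraries, from 1 cluster shared by both groups. Its log2 fold change there was 1.46 ± 0.23 (edgeR adjusted p = 0.198), and 1.44 ± 0.21 with the replicate block (adjusted p = 0.00695), which called 1.51% of genes in this class. For the order of the libraries, 10.2% of genes were higher in every ginkgetin library in plasma cell-like cells, and 11.3%, 9.51%, 7.39%, 6.33% and 9% were lower in cholangiocyte-like, monocyte-like, B, NK and T cell-like cells.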

How the results depend on the processing

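The members were not tested within the class of 40 neutrophil-like cells, because only vehicle 3 reached the minimum number of cells set here. Cells filtered by UMIs held 5 of these 40 cells but formed no neutrophil-like cluster. The 3 granule genes did not pass the filter on low counts. With the replicate block, 2 members were called in monocyte-like, 5 in macrophage-like, 0 in T cell-like, 2 in cholangiocyte-like, 1 in endothelial-like and 4 in all kept cells. With a block for the barcode set (replicate 3 against the others) the counts were 1, 4, 0, 3, 2 and 3, beside 3.71%, 30.5%, 0.312%, 3.46%, 14.9% and 36.25% of all genes. DESeq2 called 1, 1, 0, 2, 1 and 2, beside 2.33%, 17.9%, 2.26%, 1.23%, 4.16% and 28.9%. Replicates 1 and 2 alone gave 0, 1, 0, 2, 2 and 1, beside 0.0355%, 17.9%, 0%, 1.83%, 7.11% and 20.9%. Without a cell filter 1 was called in macrophage-like (16.1% of genes) and 2 in cholangiocyte-like cells (0.318%), and with the members used in clustering 2 in macrophage-like cells (15.4%). Without a gene filter, with the highest doublet scores removed and with a marker gate in place of clusters, 1 was called in cholangiocyte-like cells (0.128%, 0.205% and 0.246% of genes). The UMI filter left 0 in all kept cells, and 0 of all genes. Without 1 library the count stayed at 0 in each class and was 1 to 2 in all kept cells, at 1 without vehicle 1, vehicle 2, vehicle 3, ginkgetin 2 or ginkgetin 3. These fits called 0 genes in monocyte-like and T cell-like cells, 0% to 12.2% in macrophage-like, 0% to 0.152% in cholangiocyte-like, at most 0.00972% in endothelial-like and 4.34% to 14.4% in all kept cells, so a member count of 0 was the background in most of them. The neutrophil-like share difference ranged from -0.268 to 0.0580 percentage points without 1 library, and the S100a8 share of T cell-like cells from -0.320 to 1.78.

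Some log2 fold changes changed sign, and the cause was not tested. In monocyte-like cells S100a8 was 0.17 in replicates 1 and 2 alone, from -2.12 (without ginkgetin 2) to 0.13 (without ginkgetin 3) without 1 library, 1.70 with the UMI filter, 0.053 with the marker gate and 0.25 with the members in clustering. S100a9 there was 0.12 in replicates 1 and 2 alone, from -1.85 (without ginkgetin 2) to 0.38 (without ginkgetin 3) without 1 library and 0.37 without vehicle 2, 1.07 with the gate, 1.05 with the members in clustering and 0.32 without cells holding 3 neutrophil markers, and S100a6 was 0.0060 in replicate 3 alone. In macrophage-like cells S100a6 was 0.12 in replicates 1 and 2 alone and 0.16 with the gate, and S100a8 ranged from -0.064 without ginkgetin 2 to 1.73 without vehicle 1. In T cell-like cells S100a4 was 0.062 with the UMI filter, and S100a8 ranged from -0.027 without ginkgetin 2 to 1.03 without ginkgetin 1. In cholangiocyte-like cells S100a8 ranged from -2.70 without ginkgetin 2 to 0.86 without vehicle 1 and was 0.60 without cells holding 3 neutrophil markers. In endothelial-like cells S100a8 was 0.32 without vehicle 1, 0.41 with the UMI filter, 0.48 without high doublet scores and 0.71 without cells holding 3 neutrophil markers, and S100a9 was 0.18, 0.93, 0.93 and 1.28 in the same order; without ginkgetin 2 they were -3.00 and -1.78. The gate gave 1.35 for S100a4 and 0.93 for S100a6 there, and replicate 3 alone 0.039 for S100a10. In all kept cells S100a8 was 0.30 in replicates 1 and 2 alone, 0.17 without vehicle 3, 0.24 with the UMI filter and 0.38 without cells holding 3 neutrophil markers, S100a9 was 0.58, 0.55, 0.25 and 0.93 in that order, without ginkgetin 2 they were -2.04 and -1.80, and S100a10 was 0.18 in replicate 3 alone. None of these reversed values belonged to Lcn2 or S100a11. Leaving out cells with 3 neutrophil markers or the barcode with the most Camp, and counting cells with 3 markers in place of the class, were chosen after seeing the data.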
